A study of Mus musculus with 4 samples.

Results

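Transcript levels of 38 genes of the tricarboxylic acid (TCA) cycle, of pyruvate entry and of glutaminolysis were examined in mouse T helper 17 (Th17) cells by RNA sequencing. The genes were taken by name as a fixed list of carriers, enzymes and enzyme regulators, and all 38 were found among the 50600 genes counted. The rule for the list did not use their levels, but the list was chosen with earlier results of these data known. Th17 cells are a class of helper T cells known for their secretion of interleukin 17. The 4 libraries were all labelled as Th17 cells of strain C57BL/6NJ, with replicate numbers 1 to 4, 1 shared donor label, no sex and no age. The linked culture protocol is for differentiation from CD4+ T cells, so these are cells differentiated in culture as far as the labels tell. They form 1 group without a treatment or control, and the comparisons are between genes, or between libraries, within it. The labels do not say that the replicates came from separate animals or cultures. Sex-linked transcripts, given below, set replicates 1 and 2 apart from replicates 3 and 4, so more than 1 animal was used. Within these pairs the spread may still be technical, and p-values measure the spread between the libraries alone.

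Pyruvate from glycolysis crosses the inner mitochondrial membrane through the mitochondrial pyruvate carrier. The pyruvate dehydrogenase complex then turns it into acetyl-CoA, which citrate synthase joins to oxaloacetate to start the TCA cycle. Pyruvate dehydrogenase kinases phosphorylate and switch off the complex, and pyruvate dehydrogenase phosphatases switch it on again. Glutaminolysis feeds the cycle at 2-oxoglutarate, since glutaminase makes glutamate from glutamine, and glutamate dehydrogenase or a transaminase makes 2-oxoglutarate from glutamate. Activated T cells are known for a strong use of both glucose and glutamine.

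The libraries held 28555677, 36998648, 58104663 and 42896684 counted fragments in replicates 1, 2, 3 and 4. A count of 0 therefore allowed at most 0.105, 0.0811, 0.0516 and 0.0699 CPM in those libraries. CPM is the count as a share of all counts of the library, the floor is 3 counts, and it covers counting error only. All 8 Th17 and T cell markers examined reached a level of 1 TPM in every library, with a sum of 16480 to 17160 TPM. Markers of other cell types were low. The summed levels over 5 markers each were 0.481 to 1.04 TPM for B cells, 6.51 to 7.87 TPM for macrophages, 9.37 to 11.99 TPM for CD8 and NK cells, and 0.215 to 0.360 TPM for liver and muscle. Lyz2, Ncr1 and Ms4a1 had 0 counts in every library, while Cd68 averaged 6.46 TPM and Cd8b1 10.2 TPM. The libraries fell apart into pairs for sex-linked transcripts, with a female pattern in replicates 1 and 2 and a male pattern in replicates 3 and 4. The shared donor label does not reflect this split. Xist, the RNA of the inactive X chromosome, had 132 and 131 TPM in replicates 1 and 2, and 0.329 and 0.496 TPM in replicates 3 and 4. The Y-linked gene Ddx3y had 0.428 and 0.347 TPM in replicates 1 and 2, and 58.9 and 57.3 TPM in replicates 3 and 4. The mitochondrially encoded mt-Co1, a subunit of cytochrome c oxidase, had 5919, 6357, 8997 and 7044 TPM in replicates 1 to 4, highest in replicate 3. Its part in the values of the 38 genes, all encoded in the nucleus, was not tested.

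Most of the 38 genes were well expressed. TPM (transcripts scaled to a common library sum after division of counts by exon length) was at least 1 in every library for 34 of the 38 genes (89.5%), against 47% of the 21764 protein-coding genes. The mean level was 100 TPM or more for 17 genes (44.7%), against 9.33% of protein-coding genes. A further 12 genes averaged 10 to 100 TPM, 5 averaged 1 to 10 TPM and 4 averaged under 1 TPM. The median gene of the list stood at 79.0 TPM, against 0.575 TPM over all protein-coding genes. Among the genes that passed this threshold, the medians were 96.2 TPM for the list and 31.3 TPM for protein-coding genes. The genes summed to 4148, 4163, 4122 and 4130 TPM in replicates 1 to 4, a mean of 4141 ± 18.5 TPM (SD, n = 4), or 0.414% of all TPM. Their highest member was Mdh2, mitochondrial malate dehydrogenase, and the 4 genes under 1 TPM were Pdk2, Pdk4, Me1 and Me3.

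**Figure D1:**
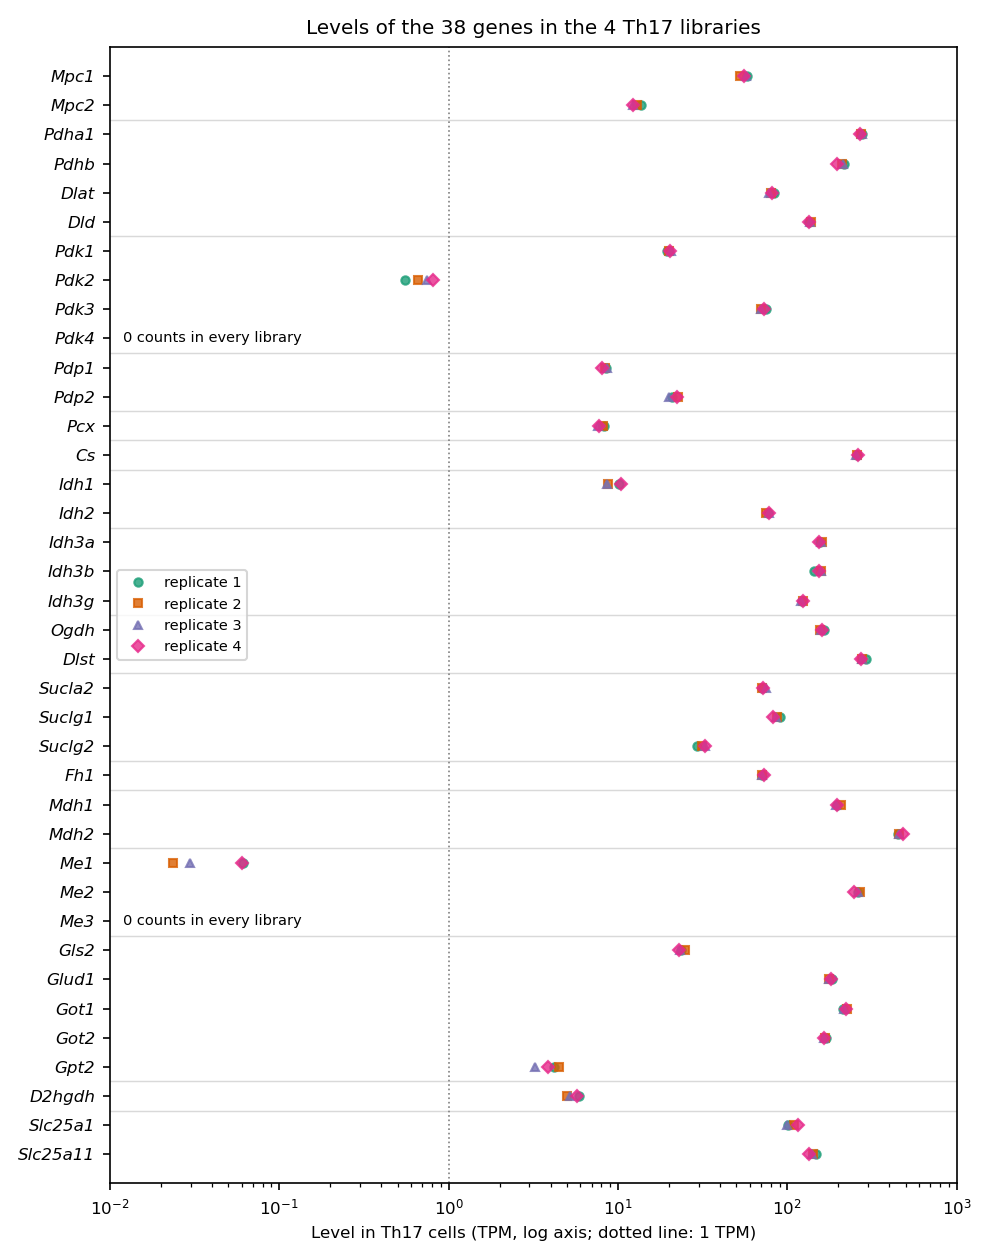
Level of each of the 38 genes in TPM (log axis), with points for the 4 Th17 libraries and genes grouped by role. Mdh2 lies highest at a mean of 461 TPM, the 4 points of most genes nearly coincide, and Pdk2, Pdk4, Me1 and Me3 fall left of the dotted line at 1 TPM.

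The carrier through which pyruvate enters mitochondria is built from Mpc1 and Mpc2. Mpc2 (chr1:165460637-165481214, plus strand, mm10) had 13.7, 12.9, 12.4 and 12.3 TPM in replicates 1 to 4. Mpc1 (chr17:8282904-8297661, plus strand) had 57.5, 52.6, 57.3 and 55.4 TPM. Mpc2 lay below Mpc1 in every library, by a mean log2 ratio of -2.11 ± 0.09 (SD, n = 4). That distance depended on the exon length used, which is 7344 bases for Mpc2 in the deposited tables and 1025 bases in its longest protein-coding transcript. With the longest transcript, Mpc2 averaged 66.8 TPM and Mpc1 87.8 TPM, a log2 ratio of -0.39. Of the 100-base windows of Mpc1 exons, 16.6% also occur in 2 other genes, with 8.49% in a processed pseudogene, and fragments that map to both places were not counted. Pcx, pyruvate carboxylase, which makes oxaloacetate directly from pyruvate, averaged 7.96 ± 0.357 TPM (n = 4).

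The core of the pyruvate dehydrogenase complex was abundant. Pdha1, the alpha subunit of its E1 component, had 276, 272, 276 and 268 TPM, and Pdhb, the beta subunit, had 217, 210.6, 214 and 197 TPM. The E2 component Dlat averaged 80.95 ± 2.42 TPM, and Dld, the E3 component shared with the oxoglutarate dehydrogenase complex, averaged 136 ± 2.14 TPM (n = 4 each). Pdha1 exceeded Pdhb in every library, by a log2 ratio of 0.38 ± 0.04 (n = 4). Pdhx, the E3-binding protein of the same complex and not one of the 38 genes, was lowest at 31.8 TPM, so the subunits spanned 8.59-fold from Pdha1 to Pdhx. The span was 7.18-fold with the longest transcript as length. Pcx stood at a log2 ratio of -5.08 ± 0.07 to Pdha1 (n = 4).

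Among the pyruvate dehydrogenase kinases, Pdk3 and Pdk1 supplied nearly all transcripts. Pdk1 is known as a target of hypoxia-inducible factor, Pdk2 is the broadly expressed kinase, and Pdk4 is known for its rise in muscle and liver on fasting. The sequence of 250 bases upstream of each annotated start (RefSeq, GRCm38.p6) is shown for these 4 paralogues because their transcript levels lie so far apart. Capitals mark the letters ACGTG, a form of the core of the hypoxia response element, read on both strands. The other form of that core, GCGTG, was not searched for, and it occurs unmarked in the Pdk1, Pdk3 and Pdk4 windows. In Pdk2 the marked letters are shown as the 6-letter palindrome CACGTG that holds 2 overlapping copies.
Pdk1: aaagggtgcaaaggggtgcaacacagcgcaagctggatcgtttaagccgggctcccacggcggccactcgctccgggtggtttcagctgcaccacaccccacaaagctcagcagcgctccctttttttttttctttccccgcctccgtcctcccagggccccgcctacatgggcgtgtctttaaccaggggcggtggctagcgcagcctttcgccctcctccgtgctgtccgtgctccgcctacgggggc
Pdk2: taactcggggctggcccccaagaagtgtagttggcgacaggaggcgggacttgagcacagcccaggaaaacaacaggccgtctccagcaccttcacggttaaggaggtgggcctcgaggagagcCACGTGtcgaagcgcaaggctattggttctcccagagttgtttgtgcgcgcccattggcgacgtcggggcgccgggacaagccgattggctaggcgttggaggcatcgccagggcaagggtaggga
Pdk3: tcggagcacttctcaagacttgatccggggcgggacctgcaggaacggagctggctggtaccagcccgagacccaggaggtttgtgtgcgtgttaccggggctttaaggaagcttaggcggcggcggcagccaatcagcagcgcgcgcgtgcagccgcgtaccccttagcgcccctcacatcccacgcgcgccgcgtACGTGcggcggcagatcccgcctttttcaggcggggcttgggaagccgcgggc
Pdk4: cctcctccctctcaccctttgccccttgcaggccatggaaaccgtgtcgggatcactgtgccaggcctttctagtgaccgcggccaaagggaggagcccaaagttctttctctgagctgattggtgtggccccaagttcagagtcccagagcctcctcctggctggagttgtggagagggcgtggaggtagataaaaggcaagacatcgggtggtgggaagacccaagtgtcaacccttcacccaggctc
The windows are chr2:71872974-71873223 on the plus strand for Pdk1, chr11:95041372-95041621 on the minus strand for Pdk2, chrX:93832151-93832400 on the minus strand for Pdk3 and chr6:5496279-5496528 on the minus strand for Pdk4. Each is written in the direction of transcription. They held 19, 19, 29 and 6 CpG dinucleotides for Pdk1, Pdk2, Pdk3 and Pdk4. Of the 38 genes 34 had a listed promoter, without Pdp1, Idh3a, Me2 and Gls2, and their median was 17.5 CpG, against 10 over 16469 protein-coding genes. ACGTG occurred in 9 of these 34 windows (26.5%) and in 17.9% of all windows, and CACGTG in 4 (11.8%) and in 6.82%. Pdk1 and Pdk2 have 2 listed starts each, of which the more upstream one was used, and over both starts the number of CpG was 2 to 19 for Pdk1 and 12 to 19 for Pdk2.

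Pdk1 had 19.5, 20.1, 20.7 and 20.4 TPM in replicates 1 to 4. Pdk3 (chrX:93764607-93832201, minus strand) had 74.7, 70.1, 69.5 and 72.9 TPM. Pdk2 had 0.556, 0.656, 0.741 and 0.806 TPM, from 15, 23, 41 and 33 counts, and Pdk4 had 0 counts in all 4 libraries. The ranges of these paralogues did not overlap. Pdk1 lay below Pdk3 by a log2 ratio of -1.83 ± 0.08 and above Pdk2 by 4.69 ± 0.17 (n = 4 each). With the floor of 3 counts per library in place of 0, Pdk1 was at least 195-fold higher than Pdk4. Of the family's summed 92.7 ± 2.04 TPM, Pdk3 held 77.5% ± 1.01, Pdk1 21.8% ± 0.918 and Pdk2 0.745% ± 0.120 (n = 4). In counts without division by length, Pdk3 held 53.6% and Pdk1 45.8%. The phosphatases, which reverse the kinases, were led by Pdp2. Pdp1 averaged 8.41 ± 0.273 TPM and Pdp2 21.5 ± 1.31 TPM, a log2 ratio of -1.34 ± 0.13 (n = 4).

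**Figure D2:**
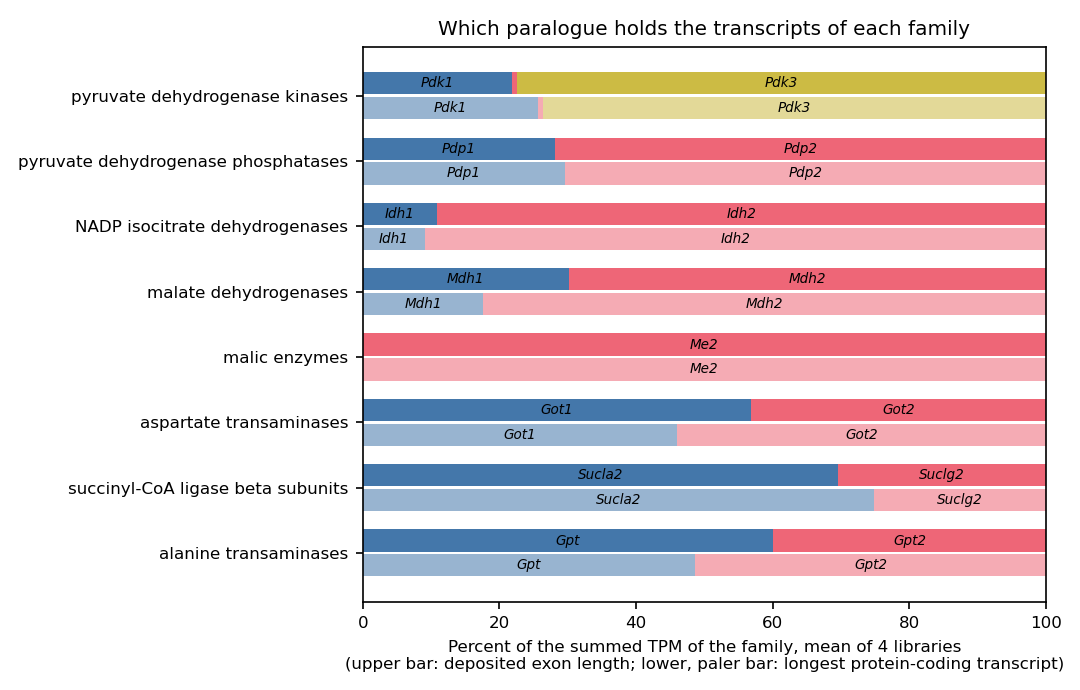
Percent of the summed TPM held by each paralogue in 8 enzyme families, as means of the 4 Th17 libraries, with the deposited exon length in the upper bar and the longest protein-coding transcript in the lower, paler bar. Pdk3 holds 77.5% of the kinase transcripts and Me2 99.98% of the malic enzyme transcripts, while the order within the aspartate and the alanine transaminases turns with the length used.

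The cycle enzymes of the list ranged from a mean of 31.6 TPM for Suclg2 to 461 TPM for Mdh2. Idh1, a cytosolic enzyme outside the cycle, averaged 9.46 TPM. Cs, citrate synthase, had 257, 258, 255 and 261 TPM. Its coefficient of variation of 0.980% was the smallest of the 29 genes that averaged at least 10 TPM. The NAD-dependent isocitrate dehydrogenase has the subunits Idh3a, Idh3b and Idh3g, at means of 157 ± 2.97, 154 ± 6.87 and 122.5 ± 1.51 TPM (n = 4 each). The highest and lowest of these subunits were 1.28-fold apart. Idh3b averaged 237 TPM with the longest transcript. Idh3a and Idh3b were each the higher one in 2 libraries (mean log2 ratio 0.03 ± 0.06, n = 4), and with the longest transcript the mean ratio turned to -0.075. The NADP-dependent paralogues are mitochondrial Idh2 and cytosolic Idh1. Idh2 had 76.8, 75.3, 77.9 and 78.4 TPM, against 10.1, 8.70, 8.57 and 10.5 TPM for Idh1. Idh2 was higher in every library by a log2 ratio of 3.02 ± 0.14 (n = 4) and held 89.1% of their sum.

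The oxoglutarate dehydrogenase complex turns 2-oxoglutarate into succinyl-CoA. Its E1 component Ogdh had 164, 156.5, 158.6 and 159.9 TPM, and its E2 component Dlst had 291, 276.5, 277 and 273 TPM. Ogdh lay below Dlst in every library, by a log2 ratio of -0.81 ± 0.02 (n = 4), but above it by 0.17 in CPM, which is not divided by length. Succinyl-CoA ligase pairs the alpha subunit Suclg1 with a beta subunit that makes either ATP (Sucla2) or GTP (Suclg2). Suclg1 averaged 86.2 ± 3.37 TPM, Sucla2 72.3 ± 1.64 TPM and Suclg2 31.6 ± 1.57 TPM (n = 4 each). Sucla2 held 69.6% ± 0.766 of the 2 beta subunits and was higher than Suclg2 in every library. With the longest transcript as length Suclg1 reached 191 TPM and its log2 ratio to Sucla2 was 1.02, against 0.25 with the deposited length, since its deposited exon length of 4617 bases is longer than its longest transcript of 1519 bases. The 4 subunits of succinate dehydrogenase, outside the list, ranged from 101 TPM for Sdhc to 450 TPM for Sdhd, with Sdha at 286 and Sdhb at 208.5 TPM. Fh1, fumarase, averaged 71.6 ± 1.03 TPM (n = 4).

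Malate dehydrogenase closes the cycle, and its mitochondrial form Mdh2 (chr5:135778480-135790398, plus strand) was the highest of the 38 genes. Mdh2 had 448, 459, 457 and 481 TPM, against 196, 208, 195 and 198 TPM for the cytosolic form Mdh1. The ranges did not overlap, with a log2 ratio of 1.21 ± 0.06 (n = 4), or 2.23 with the longest transcript, for which Mdh2 averaged 821 TPM. Malic enzymes turn malate into pyruvate, and their transcripts came almost wholly from the mitochondrial form Me2. Me2 (chr18:73770040-73815392, minus strand) had 260, 268, 262 and 247 TPM. Me1, the cytosolic NADP-dependent form, had 2, 1, 2 and 3 counts, or 0.0609, 0.0235, 0.0297 and 0.0602 TPM. Me3, the mitochondrial NADP-dependent form, had 0 counts in each library. The length-scaled ratio of Me2 to Me1 over the pooled counts was 6238 (exact 95% interval 3166 to 14450, counting error only). With 3 counts per library in place of 0, Me2 was at least 10810-fold higher than Me3. This bound fell to 3086-fold with the longest transcripts, since the deposited exon length of Me3 is 14624 bases and its longest transcript 4485 bases, and to 1815-fold in counts not divided by length.

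Glutamine breakdown was represented from import to glutamate dehydrogenase. Gls2, the liver-type glutaminase, had 23.5, 25.0, 23.2 and 23.0 TPM in replicates 1 to 4, a mean of 23.7 ± 0.890 TPM (n = 4). Slc1a5, a glutamine importer outside the list, averaged 260 ± 4.58 TPM (n = 4). Glud1, glutamate dehydrogenase, averaged 179 ± 3.40 TPM. Gpt2, the mitochondrial alanine transaminase, had 4.17, 4.51, 3.23 and 3.89 TPM and stood at a log2 ratio of -5.48 ± 0.20 to Glud1 (n = 4). The cytosolic paralogue Gpt averaged 5.91 ± 0.316 TPM, and Gpt2 held 39.96% of their sum, or 51.4% with the longest transcript.

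Aspartate transaminases pass the amino group of glutamate to oxaloacetate. The mitochondrial Got2 had 169, 167.5, 164.6 and 164.6 TPM, and the cytosolic Got1 had 212, 226, 215 and 221 TPM. Got2 lay below Got1 in every library, by a log2 ratio of -0.39 ± 0.05 (n = 4). The order turned when length was treated otherwise, to 0.53 in CPM and to 0.24 with the longest transcript. For Got2, 14.1% of the 100-base exon windows occur in other genes, and fragments that map to both places were not counted. The malate-aspartate shuttle also uses the oxoglutarate carrier Slc25a11, at 140.5 ± 5.01 TPM, and the aspartate-glutamate carriers Slc25a12 and Slc25a13, outside the list, at 39.4 and 39.6 TPM. Slc25a1, the carrier that exports citrate to the cytosol, had 100.5, 108.9, 99.7 and 116 TPM and lay below Slc25a11 by a log2 ratio of -0.41 ± 0.14 (n = 4). Acly, which splits that citrate and is outside the list, averaged 384 ± 9.22 TPM. D2hgdh, which returns D-2-hydroxyglutarate to 2-oxoglutarate, averaged 5.46 ± 0.423 TPM (n = 4). In all, 28 of the 38 genes shared no exon window of 100 bases with another gene. Besides Mpc1 and Got2, the shares were 14.6% for Me1, 13.95% for D2hgdh, 9.09% for Pdha1 and 8.60% for Suclg2. For Pdha1 the windows lie where a gene on the opposite strand overlaps it, which strand-aware counting keeps apart. For the others, the levels are uncertain. The read length is not stated, so 100 bases is an assumption.

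Of 24 gene pairs compared within libraries as log2((TPM + 0.1)/(TPM + 0.1)), 23 had the same gene higher in all 4 libraries. Each of these had p = 0.125 in an exact two-sided sign-flip permutation test, or 0.13 after Benjamini-Hochberg adjustment over the 24 pairs. That is the smallest p that 4 libraries allow, so no pair could pass 0.05. The exception, Idh3a over Idh3b, had an exact p of 0.5. The remaining pairs had mean log2 ratios on this scale of -1.75 for Dlat over Pdha1, 0.75 for Dld over Dlat, 0.36 for Idh3a over Idh3g, 0.33 for Idh3b over Idh3g, 0.25 for Suclg1 over Sucla2 and 1.19 for Sucla2 over Suclg2. The range of each pair over libraries was narrow beside the distance between most pairs.

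**Figure D3:**
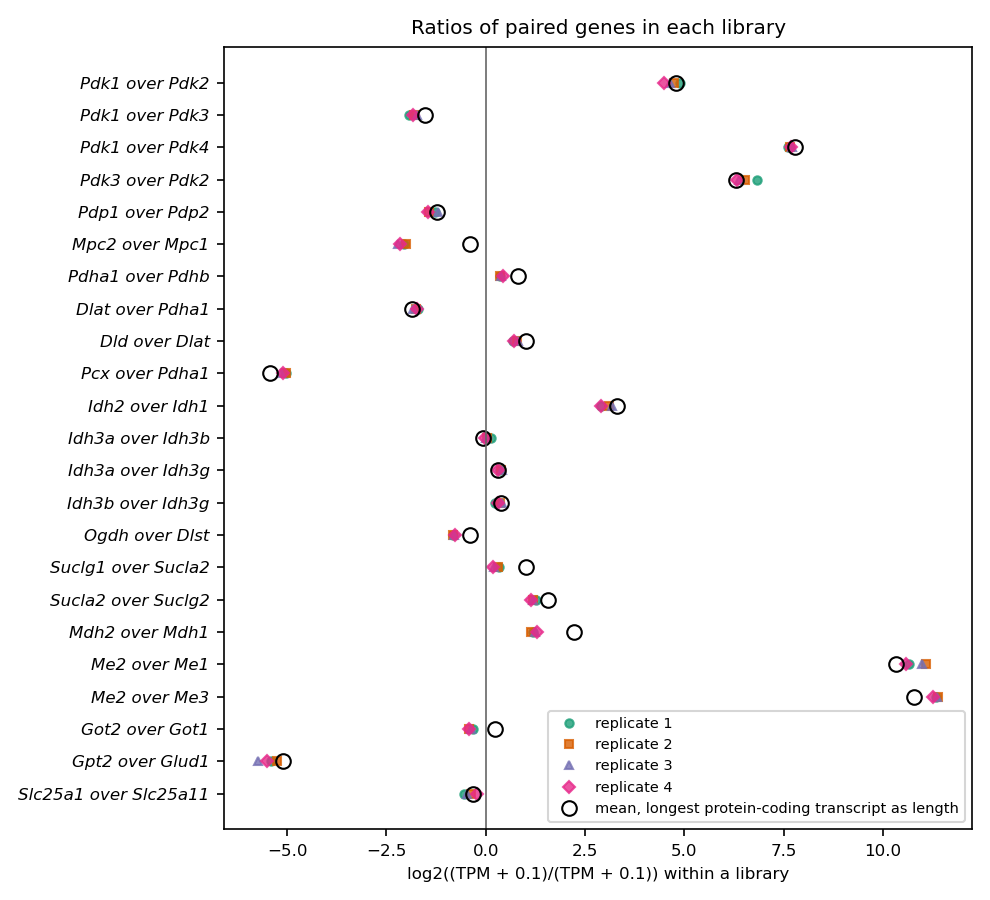
Log2 ratio of TPM (pseudocount 0.1) within a library for 23 of the pairs of genes, with filled points for the 4 Th17 libraries and an open circle for the mean with the longest protein-coding transcript as length. The library points of a pair lie close together, and those of Idh3a over Idh3b alone fall on both sides of 0. For Got2 over Got1 the open circle lies at 0.24, across 0 from the library points, and ratios over Pdk4 and Me3, at 0 counts, depend on the pseudocount.

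Other genes of the pathway were fewer above the threshold. Of 38 further transporters, lipoate enzymes, anaplerotic and related genes, 28 reached 1 TPM in every library (73.7%) and 10 averaged 100 TPM or more, with a median of 32.3 TPM. The background over protein-coding genes was again 47% and 9.33%.

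Variation between the libraries was small for the 38 genes. The filter on low counts left 35 of them, without Pdk4, Me1 and Me3. None of the 35 varied beyond the spread of genes of similar level by the negative binomial deviance with edgeR dispersions, against 65 of all 12434 genes tested (0.523%). The smallest adjusted p was 0.990, for Slc25a1. It was also the 1 gene of the 35 with an unadjusted p under 0.05 by this test, at 0.0363, against 557 of the 12434 genes. The median SD of log2 CPM was 0.0465 over the 35 genes, from 0.0089 for Got2 to 0.227 for Pdk2, and 0.0696 over all genes tested. Between the quartiles of level of the 35 genes, the medians were 0.0444 for 17 of them and 0.0456 for 4291 genes.

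Counting noise alone is a lower bar. By the Poisson deviance, 13 of the 35 genes (37.1%) differed between libraries at an adjusted p under 0.05, close to the background of 36.6%. None of them reached a ratio of 1.5 between the highest and lowest CPM, against 3.92% of all genes that did and passed the test. The 13 genes were Pdhb, Pdp2, Idh1, Idh3a, Idh3b, Suclg1, Suclg2, Mdh1, Mdh2, Me2, Got1, Gpt2 and Slc25a1. Slc25a1 was highest in replicate 4 and lowest in replicate 3, with a ratio of 1.17 (adjusted p = 2.88e-09, Poisson deviance, edgeR scaling). Idh3b was highest in replicate 3 and lowest in replicate 1, with a ratio of 1.12 (adjusted p = 7.84e-08). Mdh2 had a ratio of 1.09 (adjusted p = 1.54e-13), the smallest p of the list. Gpt2 had the widest ratio of the 13 genes, 1.39, with its lowest level in replicate 3 (adjusted p = 0.0031). The replicates that stood high or low differed from gene to gene, and the median shift of the 35 genes from their means was -0.01, 0.0021, -0.0051 and 0.0106 in replicates 1 to 4.

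**Figure D4:**
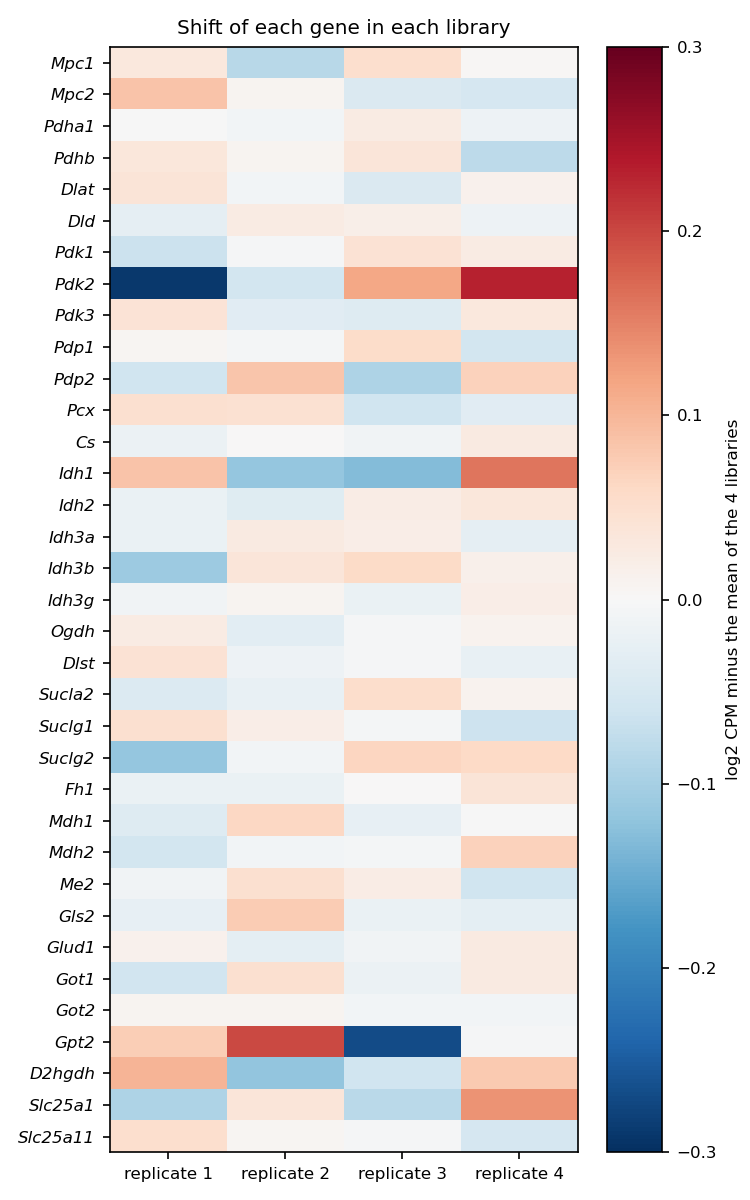
Log2 CPM of each tested gene minus its mean over the 4 Th17 libraries, as a colour from -0.3 (blue) to 0.3 (red), with libraries in columns. No column is coloured throughout, and the median shift lies within 0.0106 of 0 in every library.

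**Figure D5:**
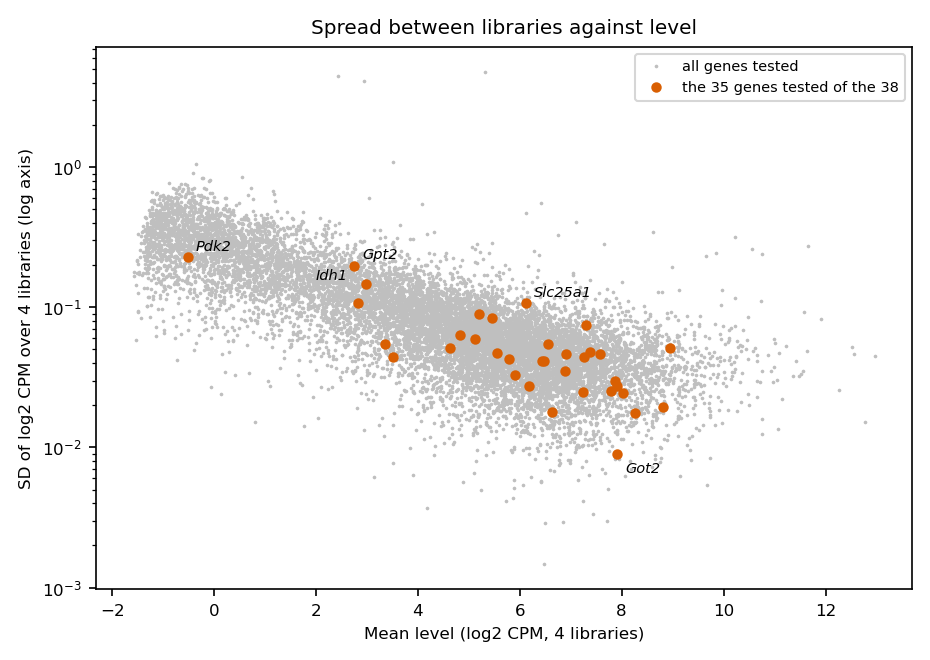
SD of log2 CPM over the 4 Th17 libraries (log axis) against mean log2 CPM, for the 35 tested genes of the list and for the 12434 genes tested. The genes of the list lie within the cloud of genes of their level, with Pdk2 highest at 0.227 and Got2 lowest at 0.0089.

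The split of the libraries by sex-linked transcripts was set beside the X-linked genes of the list, Pdha1, Pdk3 and Idh3g. Pdha1 shifted by -0.0004 and -0.0089 on the log2 CPM scale in replicates 1 and 2, and by 0.0249 and -0.0156 in replicates 3 and 4. Pdk3 shifted by 0.0419 and -0.035, and by -0.0387 and 0.0319. Idh3g shifted by -0.01 and 0.0088, and by -0.019 and 0.0203. None of the 3 genes separated replicates 1 and 2 from replicates 3 and 4.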

How the data were processed

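The authors deposited whole-number fragment counts and an exon length per gene. Per the file headers, featureCounts 1.4.6-p4 counted paired fragments with both ends mapped, by reverse strand (option 2), in GENCODE M13 exons, and neither multi-mapping fragments nor those over 2 genes were counted. Per the labels the build is mm10. The aligner is not stated by these sources. The assay label reads total RNA-seq, but the linked library protocol names poly(A) selection. A time of 48 hours appears only in the name of a counting output.

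From the deposited counts and exon lengths, TPM, CPM and log2 ratios (pseudocount 0.1) were computed here in Python 3.11.15. Symbols came from GENCODE M21 by gene ID. Variation was tested in R 4.3.3 with edgeR 4.0.16 on counts (TMM, trended dispersion, low-count filter, deviance against chi-square with 3 degrees of freedom, Benjamini-Hochberg adjustment over 12434 genes). The procedures were tested on simulated data. All 38 genes are named, with values by library where a result turns on them, and at most 12 partner genes outside the list were to be named. Slc1a5, Ogdhl, Pck1, Pck2 and Acod1 go beyond that rule and were chosen after their values were seen. The members and lists were chosen with earlier results of these data known. A few genes of the wider list, and 1 of the 24 pairs, are not reported here. Alternatives changed the length, pseudocount, threshold, scaling, dispersion or filter, or left out 1 replicate or the genes of chromosomes X and Y.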

Additional observations from a re-analysis of the deposited data

Results flagged for a closer look

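Among 69 groups of 4 values, 2 held a value far from the other 3 libraries by Dixon's criterion, of which chance flags about 1 in 20. Idh3g, the gamma subunit of NAD-dependent isocitrate dehydrogenase, had 120.3 TPM in replicate 3, against 122.9, 123.4 and 123.5 TPM in replicates 1, 2 and 4. Gpt held 64.67% of the summed TPM of Gpt and Gpt2 in replicate 3, the library in which Gpt2 was lowest at 3.23 TPM.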

How the results depend on the processing

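All member levels (144 alternatives), pair ratios (96) and family shares (76) that left out 1 replicate stayed within the replicate spread or kept their direction. Leaving out 1 of 4 libraries cannot move a mean beyond the SD, and 23 of 24 pairs had 1 direction in every library. That outcome was thus largely fixed in advance. With the longest transcript as length, 30 member levels moved beyond the replicate spread. With that length or in counts, 30 family shares also moved. Of the pair values, 4 turned with the treatment of length: Idh3a over Idh3b to -0.075 and Got2 over Got1 to 0.235 with the longest transcript, and Ogdh over Dlst to 0.174 and Got2 over Got1 to 0.533 in CPM. The remaining 164 pair values kept their direction. The longest transcript, an alternative chosen after seeing the data, moved the median level of the 38 genes to 90.88 TPM. It shifted detected protein-coding genes by a median of -0.147 (log2). Relative to that shift Mpc2 moved most, by 2.53. The other bounds for Me2 over Me3 were also chosen after seeing the data. The number of all genes varying between libraries was 65, and 91 of 12014 without the genes of chromosomes X and Y. It was 123 with a common dispersion, 113 without the low-count filter and 41 with a ratio of at least 1.5. It was 35 without replicate 1 and 32 without replicate 4, and lay between 32 and 49 without any 1 replicate. For the 38 genes this count was 0 under each of these settings, and the count beyond counting noise, 13, lay between 9 and 13. Counts of 15 to 41 for Pdk2 and 1 to 3 for Me1 limit the precision of both. No pairing of samples across groups was possible because the libraries form a single group.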

Other observations

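Among the other pathway genes, 30 passed the low-count filter. Of these, 14 varied beyond counting noise (46.7%, against 36.6% of all genes). None varied beyond the spread of genes of similar level by the negative binomial deviance with edgeR dispersions. By that test 2 of the 30 had an unadjusted p under 0.05 (Ogdhl and Pck2), against 557 of all 12434 genes tested. Pck2, the mitochondrial phosphoenolpyruvate carboxykinase, had the smallest adjusted p, 0.183, and was chosen after its values were seen. It had 11.2, 12.9, 8.92 and 12.6 TPM in replicates 1 to 4, lowest in replicate 3 as Gpt2 was. Acod1, which makes itaconate from the cycle intermediate cis-aconitate in activated macrophages, and Pck1, the cytosolic counterpart of Pck2, had 0 counts in all 4 libraries.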
